A study of Mus musculus with 10 samples.

Results

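The 42 genes described here carry a cell through division: 21 act in DNA replication (S phase) and 21 in mitosis. They were chosen by name, as 2 lists of well-known cell cycle genes drawn up with earlier results of these data known, and all 42 were present among the 12535 genes of the deposited table. RNA was sequenced from 10 samples of mouse macrophages, sorted as positive for CD45 (all leukocytes), CD11b (myeloid cells) and F4/80 (macrophages). The first group was cKO-labelled tumour-associated macrophages (TAM, n = 3) from C57/BL6 Ahr fl/fl Lys M mice, in which Cre recombinase made from the Lyz2 locus is meant to remove Ahr, the aryl hydrocarbon receptor gene, from myeloid cells. The second was control TAM (n = 3) from C57/BL6 Ahr fl/fl mice without that label, and the third was resident macrophages (n = 4) from the healthy pancreas of C57/BL6 WT mice. Both TAM groups came from pancreatic tumours 14 days after implantation of cells of the KPC organoid line MT4, which models pancreatic ductal adenocarcinoma, into the pancreas. Resident macrophages thus differed from both TAM groups in tissue state and in the floxed allele as well, and these differences cannot be told apart. The series gives its group sizes in mice, but no label ties a library to an animal, so p-values measure the spread between these libraries.

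A dividing cell first loads the MCM helicase onto its replication origins with Cdc6 and Cdt1, then copies its DNA, and later condenses and separates its chromosomes on a spindle. Genes of S phase are switched on largely by E2F transcription factors. Genes of mitosis follow through a pair of promoter elements, the CHR (cell cycle genes homology region) and the CCAAT box, which are read by the DREAM and B-MYB complexes and by the factor NF-Y. Many tissue macrophages can renew themselves by local division, while others are replaced by monocytes from the blood, and both sources are known to feed macrophages in tumours.

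Promoter sequences are shown because the members differ in these elements. RefSeq windows of 300 bases on GRCm38.p6, from 250 before to 50 after the annotated start, were found for 36 of the 42 members, 18 of either list. Ccne2, Ccna2, Tpx2, Mcm4, Aurkb and Gins2 were not matched. The letters searched on both strands were TTTGAA or TTCGAA for the CHR, CCAAT for the CCAAT box, and TTTCCCGC, TTTGGCGC, TTTCGCGC or TTTGCCGC for an E2F-like element; matches of an E2F-like element can overlap each other. In the sequences below, given 5′ to 3′ on the strand of the gene, capitals mark the matches within the 160 bases before the start. Mcm6 and Mcm5 stand for the replication genes, Cdc20 and Ube2c for the mitosis genes, Cdk1 for a promoter with all 3 kinds of match, and Kif23 for the mitosis gene whose RNA went the other way.
Mcm6, chr1:128359706-128359865, minus strand: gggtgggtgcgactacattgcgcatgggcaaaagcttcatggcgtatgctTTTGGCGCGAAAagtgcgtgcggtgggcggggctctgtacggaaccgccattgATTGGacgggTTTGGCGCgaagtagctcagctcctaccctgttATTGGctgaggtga
Mcm5, chr8:75109349-75109508, plus strand: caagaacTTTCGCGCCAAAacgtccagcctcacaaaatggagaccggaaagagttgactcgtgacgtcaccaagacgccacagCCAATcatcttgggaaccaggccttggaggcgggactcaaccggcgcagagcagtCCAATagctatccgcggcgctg
Cdc20, chr4:118437344-118437503, minus strand: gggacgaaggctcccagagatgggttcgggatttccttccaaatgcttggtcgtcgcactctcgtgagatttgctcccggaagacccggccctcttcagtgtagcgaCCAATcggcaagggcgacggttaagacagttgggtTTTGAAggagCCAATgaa
Ube2c, chr2:164769769-164769928, plus strand: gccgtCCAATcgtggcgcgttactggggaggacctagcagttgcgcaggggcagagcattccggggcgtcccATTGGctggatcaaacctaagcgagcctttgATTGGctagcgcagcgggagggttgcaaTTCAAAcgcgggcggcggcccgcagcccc
Cdk1, chr10:69352913-69353072, minus strand: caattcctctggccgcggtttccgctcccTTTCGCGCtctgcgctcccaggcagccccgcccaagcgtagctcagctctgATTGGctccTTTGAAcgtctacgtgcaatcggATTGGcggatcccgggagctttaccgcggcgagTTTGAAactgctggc
Kif23, chr9:61946800-61946959, minus strand: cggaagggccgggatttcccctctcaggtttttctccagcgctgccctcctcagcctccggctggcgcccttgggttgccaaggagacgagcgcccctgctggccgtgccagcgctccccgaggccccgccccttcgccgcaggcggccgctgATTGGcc
A match is a description of these letters, not a site or a cause.

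The 2 lists differed in these elements. A CHR was present in 14 of the 18 mitosis genes matched and in 3 of the 18 replication genes, against 21.7% of all 27025 genes in the promoter table. A CCAAT box was present in 16 mitosis genes and 9 replication genes, against 41.1% of all genes. Both elements stood in the promoters of 14 mitosis genes and 2 replication genes, Mcm2 and Mcm7, against 8.61% of all genes. An E2F-like element was found in 9 replication genes (Cdc6, Cdt1, Hells, Lig1, Mcm3, Mcm5, Mcm6, Mcm7 and Uhrf1) and in 1 mitosis gene, Cdk1, against 2.61% of all genes. Kif23 carried both mitosis elements, a CCAAT box at position -7 and a CHR at position 3 from the start, the second of which lies just past the sequence shown.

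Expression was given in FPKM, fragments per kilobase of gene corrected for library size. The gene lengths used are not stated, so rankings of genes by level and sums over genes rest on unknown lengths. Folds of 1 gene between groups do not. Recovered depth was 10312627 to 26453721 reads per library, and the fewest reads behind any member's value were 10, for Ccne2 in a resident library. Ahr itself was at 10.2, 11.2 and 9.65 FPKM in cKO-labelled TAM, against 7.11, 6.91 and 7.51 FPKM in control TAM, a rise of 0.47 on the log2 scale (limma, adjusted p = 0.000108). This goes against the label, but a value for the whole gene does not show whether a floxed exon is missing, so directions below are those of the libraries labelled cKO. Differences were tested with limma on log2(FPKM + 1) over the 11127 genes with at least 1 FPKM in at least 3 libraries, and a gene was called where its Benjamini-Hochberg adjusted p over all of them was under 0.05. A gene that rose or fell is one so called. Of the members, 41 passed that filter and Cenpf did not. Log2 changes are on this scale, which understates those of low genes, while folds are ratios of mean FPKM.

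Most cell cycle genes were highest in control TAM, lowest in resident macrophages, and between them in cKO-labelled TAM. Of all genes tested, 77.1% were called in either direction in control TAM against resident macrophages, 39.6% in cKO-labelled against control TAM and 77.4% in cKO-labelled TAM against resident macrophages. In control TAM against resident macrophages, 39 of the 41 members tested were called higher, against 39.0% of all genes tested, and 1 was called lower, Kif23, against 38.1% of all genes. In cKO-labelled against control TAM none was called higher, against 20.5% of all genes, and 35 were called lower, against 19.1%. In cKO-labelled TAM against resident macrophages 38 were called higher, against 40.2% of all genes, and 2 lower, Kif23 and Aurkb, against 37.2%. These comparisons share libraries in pairs and are not independent of each other. With no filter on low values, 40 of all 42 members were higher and 1 lower in control TAM against resident macrophages (38.7% and 36.4% of 12535 genes), and 36 were lower in cKO-labelled against control TAM (17.6%). In cKO-labelled TAM against resident macrophages 38 were then higher and 2 lower (39.8% and 35.3%).

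**Figure D1:**
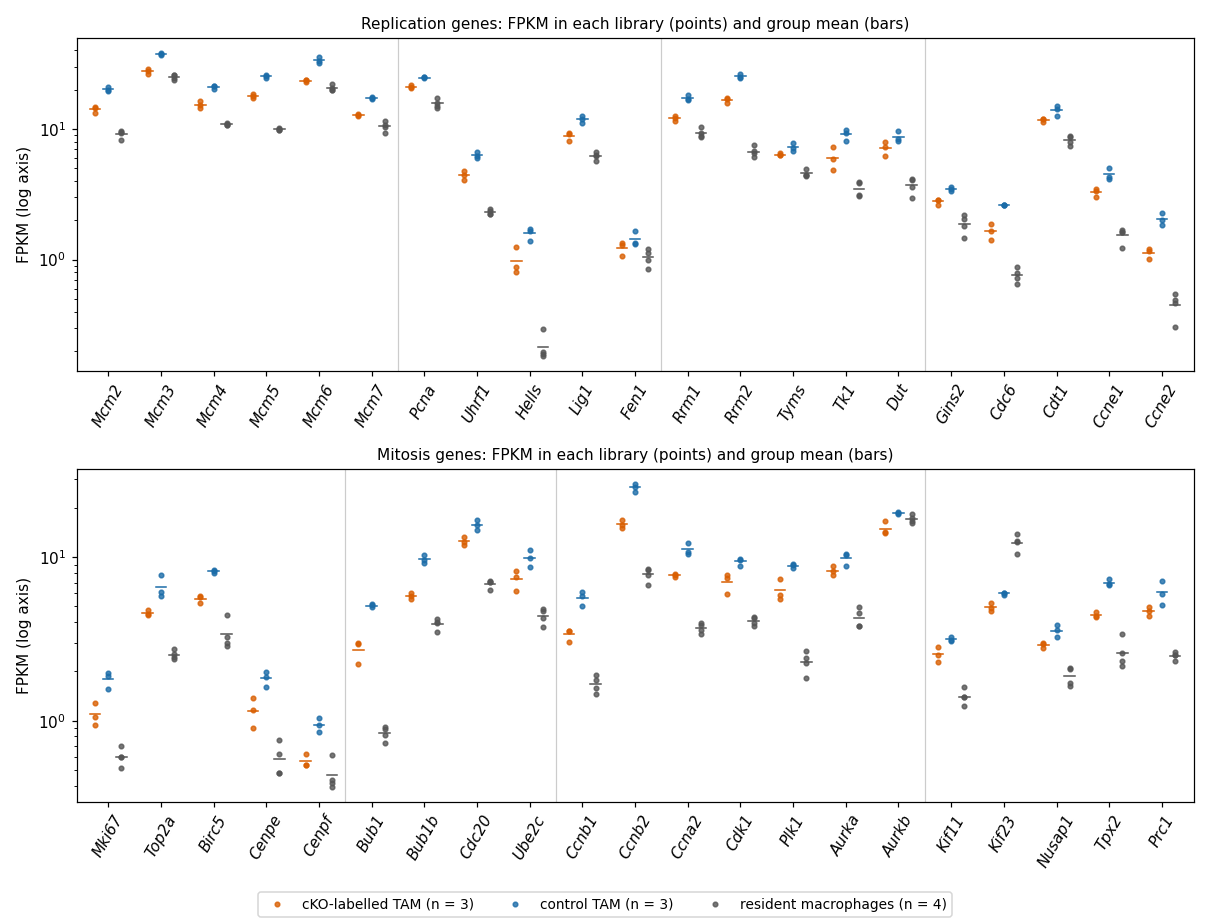
FPKM of the 21 replication genes (upper panel) and 21 mitosis genes (lower panel) on a log axis, with a point for each library and a bar at the group mean, genes ordered by role and cKO-labelled TAM left of control TAM and resident macrophages. For most genes control TAM are highest and resident macrophages lowest, while Kif23 is highest in resident macrophages (10.5 to 13.8 FPKM) and the resident points of Aurkb overlap those of both TAM groups.

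The MCM helicase, the ring of 6 subunits that opens DNA at replication forks, was among the most abundant of the replication genes. All 6 subunits rose in control TAM against resident macrophages, by 0.57 (Mcm3) to 1.26 (Mcm5) on the log2 scale, and all 6 fell in cKO-labelled against control TAM, by 0.41 (Mcm7) to 0.50 (Mcm6). Of all genes tested, 39.0% rose in the first comparison and 19.1% fell in the second. Mcm5 (chr8:75109569-75128439, GRCm38) had 18.4, 18.0 and 17.3 FPKM in cKO-labelled TAM, 24.7, 25.6 and 25.6 FPKM in control TAM, and 9.88, 10.1, 10.0 and 9.87 FPKM in resident macrophages. The 3 groups did not overlap, and the resident libraries lay closest together. Control TAM held 2.54-fold as much as resident macrophages (log2 1.26, 95% interval 1.16 to 1.36, limma adjusted p = 3.36e-13) and cKO-labelled TAM 0.706-fold as much as control TAM (log2 -0.48, -0.58 to -0.38, adjusted p = 1.79e-06).

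Mcm6 (chr1:128331590-128359664, GRCm38) had 23.7, 22.7 and 23.7 FPKM in cKO-labelled TAM, 33.2, 35.5 and 31.9 FPKM in control TAM, and 20.4, 19.7, 21.9 and 19.7 FPKM in resident macrophages. Its cKO-labelled libraries stood just above the resident ones and well below the control TAM. The change of -0.50 in cKO-labelled against control TAM (interval -0.62 to -0.39, adjusted p = 3.11e-06) was larger than the change of 0.19 in cKO-labelled TAM against resident macrophages (0.08 to 0.29, adjusted p = 0.00332). Mcm3, the most abundant replication gene, had 26.3, 28.7 and 27.7 FPKM in cKO-labelled TAM, 37.5, 38.1 and 36.5 FPKM in control TAM, and 23.7, 25.9, 25.7 and 24.3 FPKM in resident macrophages. The lowest cKO-labelled library stood just above the highest resident one, and the rise of 0.14 between them (adjusted p = 0.0105) was lost without cKO-labelled replicate 2 (0.11, adjusted p = 0.0641). Mcm2 had 14.6, 14.5 and 13.3 FPKM in cKO-labelled TAM, 19.6, 20.7 and 19.9 FPKM in control TAM, and 9.22, 8.16, 9.51 and 9.71 FPKM in resident macrophages, with the 3 groups apart. The falls of Mcm4 and Mcm7 in cKO-labelled against control TAM were 0.43 and 0.41.

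The licensing factors and the E-type cyclins, which start S phase with the kinase Cdk2, rose in control TAM against resident macrophages in 5 of 5 genes (39.0% of all genes). In cKO-labelled against control TAM 4 of 5 fell (19.1% of all genes). Ccne2 had 1.20, 1.01 and 1.16 FPKM in cKO-labelled TAM, 1.83, 2.004 and 2.26 FPKM in control TAM, and 0.549, 0.307, 0.468 and 0.487 FPKM in resident macrophages. The groups were apart, though exons of Ints8 on the opposite strand overlap Ccne2 over 609 bases and the libraries keep no strand. Its fold in cKO-labelled against control TAM, 0.551, was the lowest of the replication genes (log2 -0.51, -0.70 to -0.33, adjusted p = 0.000321). Ccne1 had 3.34, 3.49 and 2.99 FPKM in cKO-labelled TAM, 4.12, 5.04 and 4.30 FPKM in control TAM, and 1.22, 1.62, 1.61 and 1.70 FPKM in resident macrophages, again with no overlap. Cdc6, which loads the helicase, had 1.42, 1.65 and 1.86 FPKM in cKO-labelled TAM, 2.60, 2.61 and 2.62 FPKM in control TAM, and 0.717, 0.884, 0.792 and 0.651 FPKM in resident macrophages, with a fall of 0.46 in cKO-labelled against control TAM. Cdt1, its partner, fell by 0.23 there (adjusted p = 0.0246), a call that was lost without cKO-labelled replicate 2 (adjusted p = 0.0895) or without control TAM replicate 2 (0.108) or 3 (0.0750). Gins2, part of the active helicase, did not pass in that comparison (-0.24, -0.43 to -0.04, adjusted p = 0.0519). Its exons overlap those of Gse1 over 2758 bases.

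Genes that supply the building blocks of DNA held the largest change among the replication genes on the log2(FPKM + 1) scale, while by fold Hells (7.36) and Ccne2 (4.49) rose further in control TAM against resident macrophages. Rrm2 (chr12:24708241-24714146, GRCm38), the regulated subunit of ribonucleotide reductase, had 16.8, 17.3 and 15.7 FPKM in cKO-labelled TAM, 26.2, 24.5 and 24.9 FPKM in control TAM, and 6.06, 6.48, 6.75 and 7.46 FPKM in resident macrophages. The 3 groups were far apart. Control TAM held 3.77-fold as much Rrm2 as resident macrophages (log2 1.77, 1.64 to 1.91, adjusted p = 2.99e-13) and cKO-labelled TAM 0.658-fold as much as control TAM (log2 -0.58, -0.72 to -0.43, adjusted p = 8.21e-06). Its partner Rrm1, the large subunit, changed less against resident macrophages (0.82) and by -0.48 in cKO-labelled against control TAM.

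Tk1, the thymidine kinase of S phase, had 5.90, 7.26 and 4.84 FPKM in cKO-labelled TAM, 8.14, 9.88 and 9.25 FPKM in control TAM, and 3.06, 3.11, 3.89 and 3.93 FPKM in resident macrophages. The groups did not overlap, but the cKO-labelled libraries spread more widely than the others. Dut, which keeps uracil out of DNA, had 6.17, 7.87 and 7.23 FPKM in cKO-labelled TAM, 9.64, 8.05 and 8.43 FPKM in control TAM, and 3.61, 2.98, 4.16 and 4.09 FPKM in resident macrophages. It was called higher in both TAM groups against resident macrophages, and in cKO-labelled against control TAM it did not pass (-0.27, -0.49 to -0.04, adjusted p = 0.0556), although the lowest control TAM library was above the highest cKO-labelled one. Tyms, thymidylate synthase, did not pass in that comparison either (-0.16, -0.31 to -0.01, adjusted p = 0.0885).

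Among the enzymes and chromatin proteins of the fork, Uhrf1, which brings DNA methylation to newly copied strands, had 4.45, 4.78 and 4.08 FPKM in cKO-labelled TAM, 5.96, 6.25 and 6.69 FPKM in control TAM, and 2.24, 2.42, 2.21 and 2.34 FPKM in resident macrophages. The 3 groups were apart. Hells, a chromatin remodeller, had the largest fold of all members, 7.36 in control TAM against resident macrophages, from means of 1.59 ± 0.184 and 0.216 ± 0.0530 FPKM (SD). As few as 12 reads stood behind a resident value of Hells. Pcna, the sliding clamp of DNA polymerase, fell by 0.22 in cKO-labelled against control TAM (limma adjusted p = 0.00757), and Lig1, which seals new strands, fell by 0.39 (adjusted p = 0.000650). Fen1, the nuclease that trims Okazaki fragments, changed least of the replication genes on the log2 scale: its rise in control TAM against resident macrophages was 0.26 (0.07 to 0.44, adjusted p = 0.0135) and was lost without control TAM replicate 2 (0.19, adjusted p = 0.0765). Fen1 did not pass in cKO-labelled against control TAM (-0.13, -0.33 to 0.07, limma adjusted p = 0.296), with overlapping groups. Exons of Gm10143 overlap Fen1 over 1909 bases.

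The kinases and cyclins that drive entry into mitosis rose in 6 of 7 genes in control TAM against resident macrophages, with a median change of 1.32 against 0.79 for the MCM genes. They fell in 6 of 7 in cKO-labelled against control TAM, with a median of -0.45 in both groups of genes. The shares of all genes were 39.0% higher in the first comparison and 19.1% lower in the second. Ccnb2 (chr9:70407692-70421547, GRCm38), a B-type cyclin, had 15.0, 15.8 and 16.8 FPKM in cKO-labelled TAM, 27.0, 25.1 and 28.1 FPKM in control TAM, and 6.80, 7.79, 8.43 and 8.37 FPKM in resident macrophages. The groups were far apart, with cKO-labelled TAM in between. Control TAM held 3.41-fold as much as resident macrophages (log2 1.65, 1.51 to 1.80, adjusted p = 2.53e-12) and cKO-labelled TAM 0.594-fold as much as control TAM (log2 -0.72, -0.87 to -0.56, adjusted p = 2.20e-06), the largest log2 fall of any member tested.

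Ccnb1, the other B-type cyclin of the list, had 3.55, 3.04 and 3.54 FPKM in cKO-labelled TAM, 5.77, 5.04 and 6.15 FPKM in control TAM, and 1.59, 1.45, 1.89 and 1.76 FPKM in resident macrophages. Ccna2, the A-type cyclin of S phase and G2, had 7.91, 7.78 and 7.60 FPKM in cKO-labelled TAM, 10.8, 10.5 and 12.3 FPKM in control TAM, and 3.61, 3.39, 3.93 and 3.86 FPKM in resident macrophages. Plk1, a kinase of the spindle poles, had 7.39, 5.52 and 5.91 FPKM in cKO-labelled TAM, 8.97, 9.12 and 8.54 FPKM in control TAM, and 1.83, 2.69, 2.41 and 2.27 FPKM in resident macrophages. None of these 3 genes had overlapping groups, and all 3 were called in each comparison. Ccnb1 fell by 0.60, Ccna2 by 0.47 and Plk1 by 0.45 in cKO-labelled against control TAM. Cdk1, the kinase these cyclins bind, fell by 0.38 there (adjusted p = 0.00303), while Aurka, a kinase of the spindle poles, did not pass (-0.23, -0.42 to -0.04, adjusted p = 0.0562).

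The spindle checkpoint holds chromosomes back until all are attached, and the anaphase-promoting complex then releases them; its 4 members here were called in every comparison. Bub1 (chr2:127801122-127831865, GRCm38), a checkpoint kinase, had 3.01, 2.94 and 2.22 FPKM in cKO-labelled TAM, 5.11, 4.94 and 5.14 FPKM in control TAM, and 0.818, 0.728, 0.894 and 0.914 FPKM in resident macrophages. Its groups were wide apart: the fold was 6.03 in control TAM against resident macrophages (log2 1.72, 1.54 to 1.90, adjusted p = 1.91e-11) and 0.538 in cKO-labelled against control TAM (log2 -0.71, -0.90 to -0.52, adjusted p = 1.84e-05), the lowest fold of all members there. Bub1b, its checkpoint partner, had 5.77, 5.58 and 6.07 FPKM in cKO-labelled TAM, 9.21, 9.64 and 10.3 FPKM in control TAM, and 3.50, 3.98, 4.01 and 4.19 FPKM in resident macrophages, with no overlap and a fall of 0.66 in cKO-labelled against control TAM. Cdc20, which activates the complex, fell by 0.32 there (adjusted p = 0.00194). Ube2c, its ubiquitin carrier, fell by 0.38 (adjusted p = 0.00898), a call that was lost without cKO-labelled replicate 1 (adjusted p = 0.0506). Exons of Tnnc2 overlap Ube2c over 592 bases.

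Chromosome and kinetochore genes had the same order of groups. Mki67, the proliferation marker that coats mitotic chromosomes, averaged 1.09 ± 0.177 FPKM in cKO-labelled TAM, 1.79 ± 0.204 FPKM in control TAM and 0.603 ± 0.0756 FPKM in resident macrophages (SD). Top2a, which untangles sister DNA, averaged 4.57 ± 0.174, 6.54 ± 1.06 and 2.53 ± 0.161 FPKM in the same groups, and Birc5, of the chromosomal passenger complex, 5.58 ± 0.270, 8.19 ± 0.208 and 3.38 ± 0.700 FPKM. Mki67, Top2a and Birc5 fell by 0.42, 0.43 and 0.48 in cKO-labelled against control TAM. Cenpe, a kinetochore motor, fell by 0.40 there. Cenpf, a kinetochore protein, averaged 0.564 ± 0.0521 FPKM in cKO-labelled TAM, 0.945 ± 0.0923 FPKM in control TAM and 0.464 ± 0.103 FPKM in resident macrophages, too low for the filter.

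Of the spindle motors and midzone proteins, Tpx2, which builds microtubules around chromosomes, had 4.33, 4.35 and 4.65 FPKM in cKO-labelled TAM, 7.37, 6.76 and 6.85 FPKM in control TAM, and 2.30, 2.60, 3.37 and 2.16 FPKM in resident macrophages. The groups were apart, and Tpx2 fell by 0.55 in cKO-labelled against control TAM. Kif11, the motor that pushes spindle poles apart, fell by 0.23 (adjusted p = 0.0384), a call that was lost without cKO-labelled replicate 2 or 3 or any single control TAM library (adjusted p 0.0617 to 0.158). Prc1, which bundles midzone microtubules, fell by 0.31 (adjusted p = 0.0143), which was lost without cKO-labelled replicate 1 (0.0564) or control TAM replicate 2 (0.0781). Exons of Rccd1 overlap Prc1 over 911 bases. Nusap1, a spindle protein, did not pass (-0.22, -0.41 to -0.03, adjusted p = 0.0567).

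Kif23 and Aurkb, both of which act at the midzone and the furrow where cells part, did not share the pattern. Kif23 (chr9:61915905-61946774, GRCm38), a motor of the centralspindlin complex, had 4.92, 4.70 and 5.23 FPKM in cKO-labelled TAM, 6.06, 5.89 and 6.07 FPKM in control TAM, and 10.5, 12.3, 13.8 and 12.5 FPKM in resident macrophages. Every resident library was above every TAM library. Kif23 fell by 0.92 in control TAM against resident macrophages (interval -1.08 to -0.76, adjusted p = 1.55e-08) and by 1.15 in cKO-labelled TAM against resident macrophages (-1.32 to -0.99, adjusted p = 9.38e-10). Its fall of 0.24 in cKO-labelled against control TAM (limma adjusted p = 0.0309) was lost without cKO-labelled replicate 1 or 2 or any single control TAM library (adjusted p 0.0513 to 0.106). Other exons do not overlap Kif23 in GENCODE M21, and Racgap1, its partner in centralspindlin, rose in control TAM against resident macrophages by 0.85 (adjusted p = 4.80e-09). Racgap1 and Cdca8 were chosen after their values were seen.

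Aurkb (chr11:69045647-69051664, GRCm38), the kinase of the chromosomal passenger complex and the most abundant mitosis gene by its mean over all 10 libraries, though below Ccnb2 in both TAM groups, had 14.2, 14.1 and 16.6 FPKM in cKO-labelled TAM, 19.0, 18.3 and 18.7 FPKM in control TAM, and 16.3, 18.5, 16.6 and 17.4 FPKM in resident macrophages. Resident libraries overlapped both TAM groups. Aurkb did not pass in control TAM against resident macrophages (0.11, -0.02 to 0.24, adjusted p = 0.104), though it did without resident replicate 2 (0.15, adjusted p = 0.0466) or with libraries rescaled to a common total (0.31). It fell by 0.30 in cKO-labelled against control TAM (-0.44 to -0.16, adjusted p = 0.00177). Its fall of 0.19 in cKO-labelled TAM against resident macrophages (adjusted p = 0.00963) was lost after rescaling (-0.06, adjusted p = 0.366) and without cKO-labelled replicate 1 (0.0507) or 2 (0.0570). Of the other members of its complex, Birc5 rose by 1.08 and Cdca8 by 0.86 in control TAM against resident macrophages, while Incenp fell by 0.15 (adjusted p = 0.0336), a fall that was gone after rescaling (0.05, adjusted p = 0.446).

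**Figure D2:**
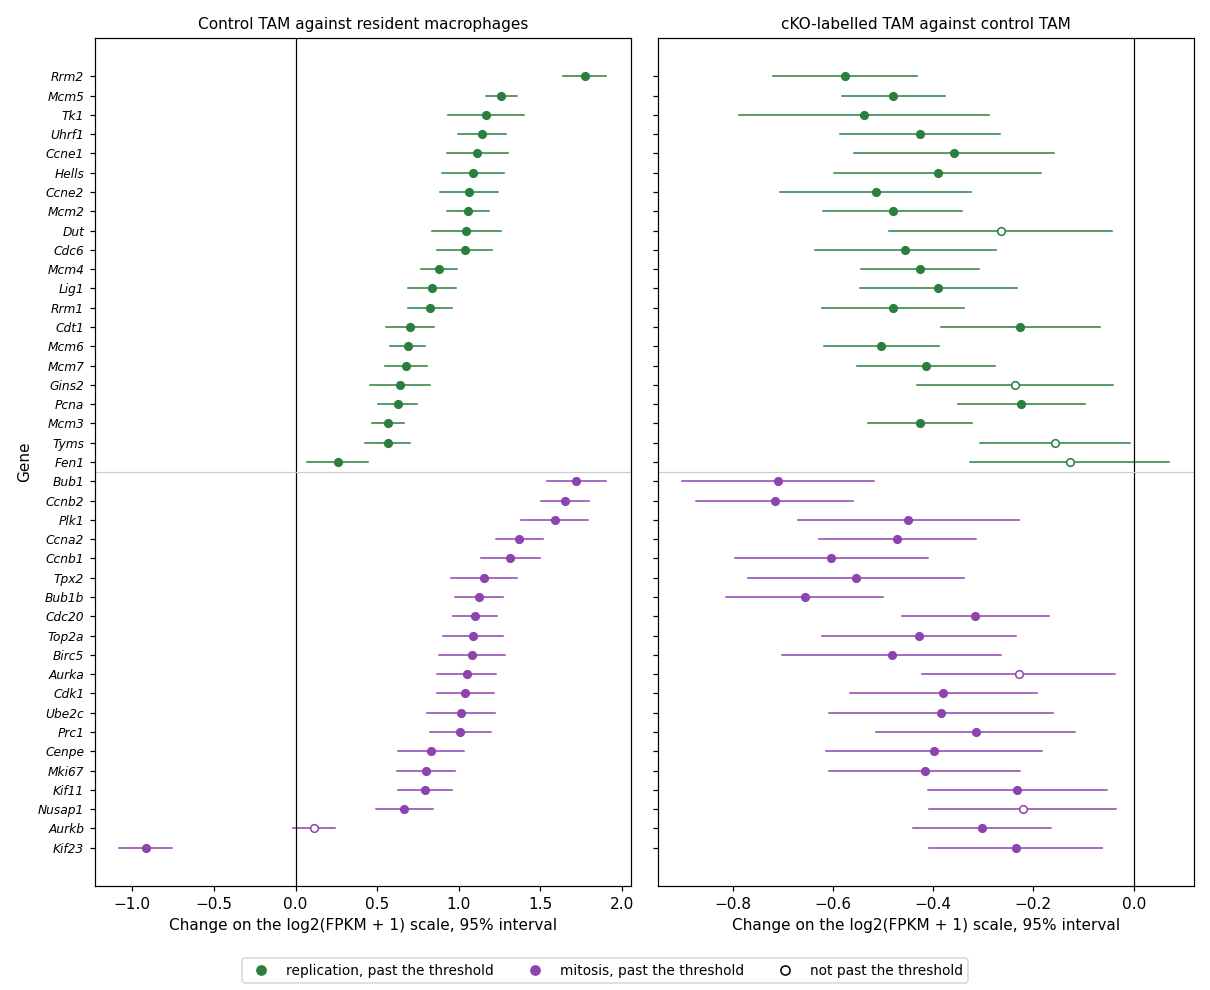
Change of the 41 members tested on the log2(FPKM + 1) scale with its 95% interval, for control TAM against resident macrophages (left) and cKO-labelled against control TAM (right), with replication genes in the upper and mitosis genes in the lower block; filled points passed the threshold. On the left all but Kif23 (-0.92) lie above 0, and on the right all lie below 0, from -0.72 (Ccnb2) to -0.13 (Fen1).

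The 2 lists were set side by side by their counts and medians, and the difference between them was not tested. Among all genes tested, 39.0% rose and 38.1% fell in control TAM against resident macrophages. In cKO-labelled against control TAM 20.5% rose and 19.1% fell. In control TAM against resident macrophages 21 of 21 replication genes rose, with a median change of 0.88, and 18 of the 20 mitosis genes tested rose and 1 fell, with a median of 1.07; the median over all 11127 genes was 0.0017. These list medians lay further apart with a pseudocount of 0.1, at 0.93 for replication and 1.28 for mitosis, and with voom on recovered reads, at 0.94 and 1.31. In cKO-labelled against control TAM 17 of 21 replication genes fell (median -0.43) and 18 of 20 mitosis genes fell (median -0.41), with a median of 0.012 over all genes. In cKO-labelled TAM against resident macrophages the medians were 0.47 for replication, 0.65 for mitosis and 0.021 for all genes. Over all 42 members, tested or not, 41 had every cKO-labelled library below every control TAM library, which 24.2% of all 12535 genes also showed, and Fen1 was the exception. No member had the opposite separation, which 25.0% of all genes showed. Against resident macrophages, 40 members had every control TAM library higher and Kif23 every one lower, which 37.2% and 34.7% of all genes showed. In cKO-labelled TAM 38 members had every library higher than every resident one and 1 had every one lower, against 39.1% and 34.5% of all genes.

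Summed over its 21 genes, replication came to 216 ± 4.81 FPKM in cKO-labelled TAM, 294 ± 4.12 FPKM in control TAM and 152 ± 3.40 FPKM in resident macrophages (SD). Mitosis came to 125 ± 3.61, 176 ± 4.47 and 85.3 ± 3.95 FPKM in the same groups. In control TAM against resident macrophages the sums were 1.94-fold and 2.06-fold higher for replication and mitosis, and in cKO-labelled against control TAM they were 0.734-fold and 0.707-fold as high. The ratio of the replication to the mitosis sum, which does not depend on how a library was scaled, was 1.74 ± 0.0855 in cKO-labelled TAM, 1.67 ± 0.0575 in control TAM and 1.78 ± 0.0678 in resident macrophages. The ranges of the 3 groups overlapped (1.65 to 1.82, 1.61 to 1.73 and 1.71 to 1.87).

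The ratio changed when Kif23 and Aurkb were left out, which made up 16.0% of the mitosis sum in cKO-labelled TAM, 14.0% in control TAM and 34.6% in resident macrophages. Without them, a choice made after their values were seen, the ratio was 2.07 ± 0.0844 in cKO-labelled TAM, 1.94 ± 0.0712 in control TAM and 2.72 ± 0.0776 in resident macrophages. Every resident library (2.63 to 2.82) then lay above every TAM library (1.87 to 2.16). Leaving out genes with their largest share in resident macrophages must raise the resident ratio most. This separation therefore follows from the choice of genes and is no separate result. The remaining 19 mitosis genes summed to 2.71-fold more in control TAM than in resident macrophages, and to 0.691-fold as much in cKO-labelled as in control TAM.

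**Figure D3:**
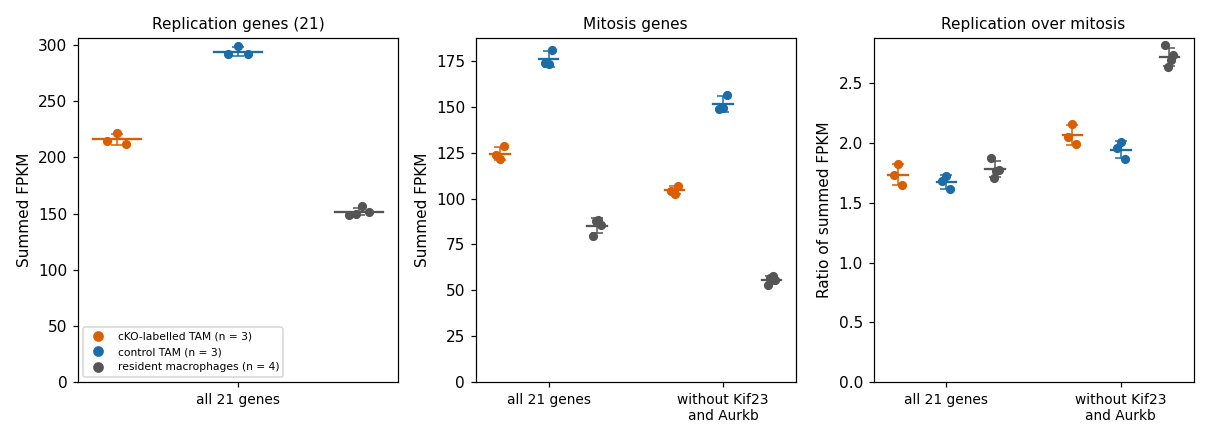
Summed FPKM of the replication genes (left) and mitosis genes (middle) and their ratio (right), with a point for each library, a bar at the group mean and error bars of 1 SD, cKO-labelled TAM left of control TAM and resident macrophages, for all 21 genes of a list and without Kif23 and Aurkb. Both sums are highest in control TAM, and the ratio overlaps between groups with all genes. Without the pair it is highest in resident macrophages (2.63 to 2.82), which follows from leaving out genes chosen for their high resident share.

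A further 8 lists of cell cycle genes, none of them members, were read the same way. Their counts stand against 39.0% of all genes higher and 38.1% lower in control TAM against resident macrophages. In cKO-labelled against control TAM these shares were 20.5% and 19.1%. Of 38 genes tested for origins and the replisome, 28 rose and 3 fell in control TAM against resident macrophages, and 2 rose and 17 fell in cKO-labelled against control TAM. The largest rises in control TAM were in Chaf1b (1.44), which builds histones onto new DNA, Gmnn (1.13), which blocks a second round of licensing, and Dna2 (1.13), a nuclease. Gins3 (-0.41), Gins4 (-0.16) and Dnmt1 (-0.32), the methyltransferase that Uhrf1 recruits, fell, but none of the 3 passed with libraries rescaled to a common total, when 32 rose and none fell. Cdc45 (-0.55), a part of the active helicase, fell most in cKO-labelled against control TAM, while Rpa3 (0.43) and Rfc2 (0.20) rose. The rise of Rfc2 was lost after rescaling (0.12, adjusted p = 0.0900). Of 35 kinetochore and spindle genes, 28 rose and 4 fell in control TAM against resident macrophages, and 1 rose and 22 fell in cKO-labelled against control TAM. Cdca3 (1.69), Kif2c (1.50) and Hmmr (1.37) rose most in control TAM, and Hmmr (-0.66), Anln (-0.63) and Melk (-0.60) fell most in cKO-labelled TAM. Pttg1, securin, which inhibits the protease separase until anaphase, ran the other way in both comparisons: 26.5 ± 1.39 FPKM in cKO-labelled TAM, 19.6 ± 1.68 FPKM in control TAM and 28.3 ± 2.10 FPKM in resident macrophages. Cenpa (-0.32), Incenp (-0.15) and Espl1 (-0.15) also fell in control TAM against resident macrophages, while after rescaling only Pttg1 (-0.30) and Cenpa (-0.13) of this list did.

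Of 16 condensin and cohesin genes, 10 rose and 3 fell in control TAM against resident macrophages (39.0% and 38.1% of all genes). In cKO-labelled against control TAM 1 rose and 10 fell (20.5% and 19.1% of all genes). In these comparisons the condensin gene Ncapg rose by 1.03 and fell by 0.50, while the cohesin gene Rad21 fell by 0.28 and rose by 0.26. After rescaling Rad21 passed in neither comparison (-0.10 and 0.19), and no gene of the list fell in the first or rose in the second. Of 13 genes for G1 cyclins, kinases and their phosphatases, 10 rose and 2 fell in control TAM, led by Cks1b (1.53) and Ccnd1 (1.05), and Wee1 (-0.69), which holds Cdk1 inactive, and Cdc25b (-0.44) fell. None rose and 6 fell in cKO-labelled against control TAM, with Cdc25c (-0.69) and Wee1 (-0.47) falling most. Of 17 genes for E2F factors, pocket proteins and their partners, 9 rose and 7 fell in control TAM (10 and 4 after rescaling), against 39.0% and 38.1% of all genes. E2f2 (1.24) and Mybl2 (0.91), which encodes B-MYB, rose, and E2f5 (-1.19), Rbl2 (-0.97) and E2f1 (-0.38) fell. In cKO-labelled against control TAM 4 rose and 3 fell (3 and 8 after rescaling), shares near the 20.5% and 19.1% of all genes as deposited. Before rescaling, Mybl2 fell by 0.41 and E2f5 rose by 0.40 there. Of 11 checkpoint and repair genes, 9 rose and 1 fell in control TAM, with Fanca (1.78) and Rad51ap1 (1.34) highest, and none rose and 7 fell in cKO-labelled against control TAM.

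The list of cell cycle inhibitors also held Trp53, Ccng1 and Mdm2, genes of the p53 pathway that are not Cdk inhibitors. More of its genes rose than fell in control TAM against resident macrophages. Of 14 such genes, 9 rose and 2 fell in control TAM against resident macrophages, where 39.0% of all genes rose and 38.1% fell, and 5 rose and 2 fell in cKO-labelled against control TAM (3 and 4 after rescaling). Gadd45a averaged 37.3 ± 1.84 FPKM in cKO-labelled TAM, 28.1 ± 1.84 FPKM in control TAM and 1.83 ± 0.358 FPKM in resident macrophages. Gadd45g (2.35) and Cdkn1a (1.59), the gene of the Cdk inhibitor p21, rose next most in control TAM, while Cdkn1c, a related inhibitor, fell by 2.53 there. Of 11 genes for control of macrophage growth, 5 rose and 5 fell in control TAM, shares near those of all genes. Of the same genes, 3 rose and 4 fell in cKO-labelled against control TAM, where 20.5% and 19.1% of all genes did. Csf1, the macrophage growth factor, rose by 1.88 in control TAM and by 0.49 in cKO-labelled against control TAM. Its receptor Csf1r averaged 454 ± 6.90 FPKM in cKO-labelled TAM, 534 ± 7.65 FPKM in control TAM and 1238 ± 6.40 FPKM in resident macrophages. Maf, known in mice to restrain macrophage division, fell by 1.49 in control TAM against resident macrophages and rose by 0.33 in cKO-labelled against control TAM.

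**Figure D4:**
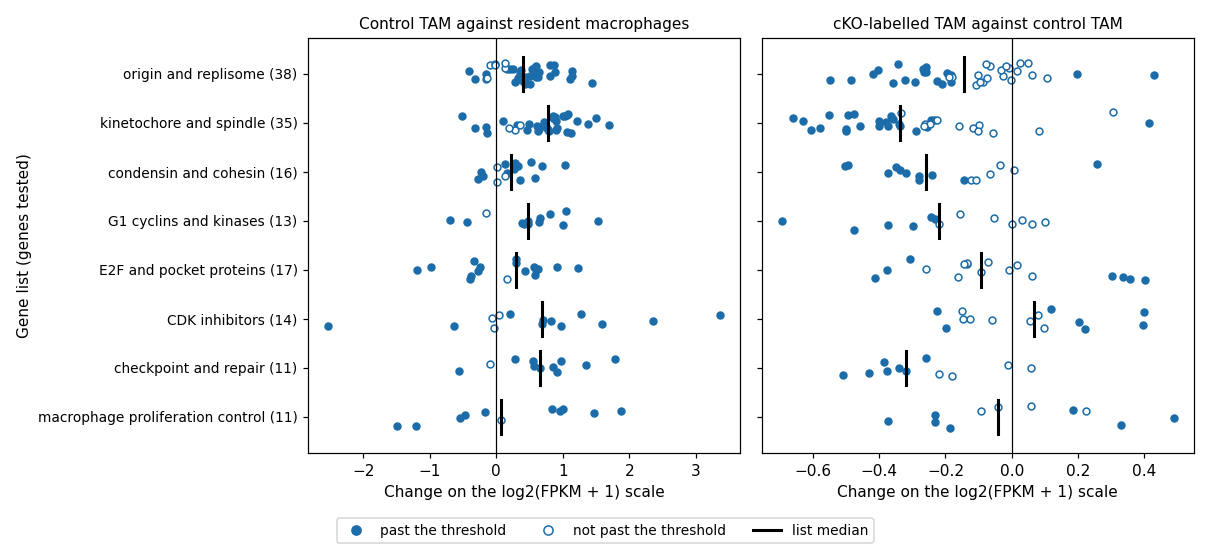
Change on the log2(FPKM + 1) scale of the genes tested in 8 further cell cycle lists, for control TAM against resident macrophages (left) and cKO-labelled against control TAM (right), with a point for each gene, filled where it passed the threshold, and a black bar at the list median. Origin, kinetochore and repair genes lie mostly above 0 on the left and below 0 on the right, while E2F genes and inhibitors spread to both sides.

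The levels are those of bulk samples, in which fewer dividing cells and less RNA per cell cannot be told apart. Marker genes of other cells in the tissue were not level across the groups. The 12 epithelial markers in the table of 14 listed (Cldn4 and Tff1 not in it) summed to 297 to 308 FPKM in cKO-labelled TAM, 290 to 295 FPKM in control TAM and 85.2 to 96.9 FPKM in resident macrophages. Their sum was higher in both TAM groups than in resident macrophages, but the markers did not all go that way. In control TAM against resident macrophages 11 rose and 1, Tff2, fell (-5.97), against 39.0% and 38.1% of all genes. Krt18 and Krt19, with the highest mean FPKM of the list, averaged 107 ± 4.84 and 68.9 ± 1.07 FPKM in cKO-labelled TAM, 93.2 ± 1.34 and 82.2 ± 3.75 FPKM in control TAM, and 3.85 ± 0.702 and 1.76 ± 0.401 FPKM in resident macrophages. The 9 fibroblast markers of 11 listed (Thy1 and Fap not in the table) summed to 124 to 128 FPKM in cKO-labelled TAM, 162 to 165 FPKM in control TAM and 37.7 to 41.4 FPKM in resident macrophages. Of the 6 fibroblast markers tested in cKO-labelled against control TAM, Postn, Lum and Col1a1 rose, Dcn and Col1a2 fell, and Col3a1 did not pass. The 11 T and NK cell markers of 13 (Gzma and Ncr1 not in the table) summed to 27.4 to 30.2 FPKM in cKO-labelled TAM, 18.7 to 22.5 FPKM in control TAM and 10.7 to 11.1 FPKM in resident macrophages. The 11 neutrophil markers of 12 (Elane not in the table) came to 1630 to 1792 FPKM in cKO-labelled TAM, 1292 to 1318 FPKM in control TAM and 360.0 to 369 FPKM in resident macrophages. The 4 eosinophil markers of 7 (Epx, Ear1 and Ear6 not in the table) came to 103 to 106 FPKM, 73.7 to 77.1 FPKM and 0.641 to 1.22 FPKM in the same groups, with Prg2 at 0 in resident macrophages. The 4 endothelial markers of 6 (Cdh5 and Tek not in the table) came to 11.3 to 11.9 FPKM, 6.96 to 7.92 FPKM and 2.77 to 3.37 FPKM. Single T and NK and neutrophil markers did not all follow their sums. In control TAM against resident macrophages 9 of 11 T and NK markers tested rose and 1 fell. For neutrophils 8 of 10 rose and 1 fell. In cKO-labelled against control TAM 7 rose and 1 fell in either list, against 20.5% and 19.1% of all genes.

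The sums of the remaining 4 lists were highest in resident macrophages, and no marker in the table was at 0 in any group but Prg2. The 5 B and plasma cell markers in the table, of 8 listed, summed to 241 to 244 FPKM in cKO-labelled TAM, 85.8 to 94.7 FPKM in control TAM and 897 to 916 FPKM in resident macrophages. The 7 dendritic cell markers of 10 (Xcr1, Clec9a and Ccr7 not in the table) summed to 79.8 to 85.2 FPKM in cKO-labelled TAM, 34.1 to 39.8 FPKM in control TAM and 185 to 197 FPKM in resident macrophages. Of the 6 tested, 4 fell in control TAM against resident macrophages (38.1% of all genes) and 2 did not pass. In cKO-labelled against control TAM 4 rose (20.5% of all genes) and 2 did not pass. The 10 acinar markers, all in the table, averaged 290 ± 5.36 FPKM in cKO-labelled TAM, 68.3 ± 1.51 FPKM in control TAM and 25515 ± 675 FPKM in resident macrophages. The 12 macrophage markers, all in the table, had sums averaging 25174 ± 219 FPKM in cKO-labelled TAM, 31954 ± 100.4 FPKM in control TAM and 48136 ± 546 FPKM in resident macrophages. The single markers were split. In control TAM against resident macrophages 4 rose and 8 fell, against 39.0% and 38.1% of all genes. In cKO-labelled against control TAM 4 rose and 6 fell, against 20.5% and 19.1%. The part of these cells in the cell cycle results was not tested.

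**Figure D5:**
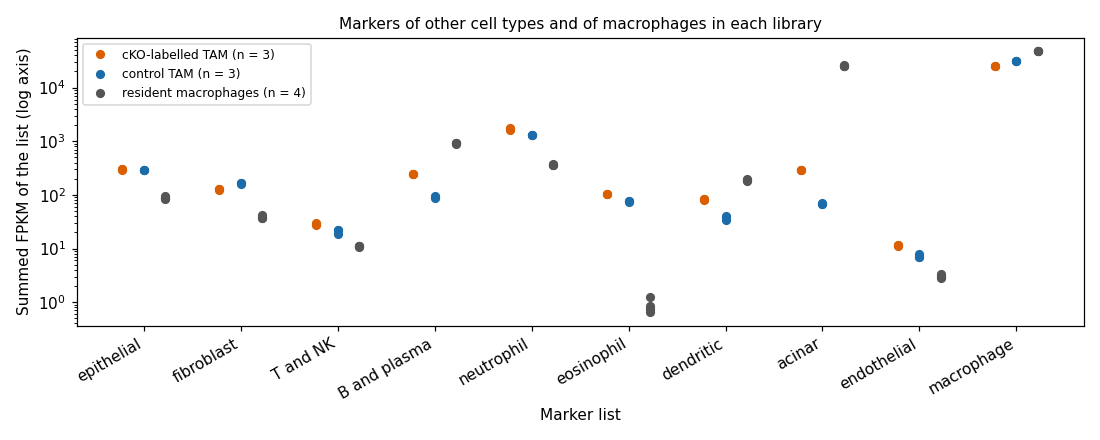
Summed FPKM of each list of cell type markers on a log axis, with a point for each library, cKO-labelled TAM left of control TAM and resident macrophages. Epithelial sums are close in both TAM groups (297 to 308 and 290 to 295 FPKM), fibroblast sums are highest in control TAM, and acinar sums are highest in resident macrophages.

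Total FPKM also differed between groups, so each library was rescaled to a common total as an alternative. This moved the median of all genes by 0.18 in control TAM against resident macrophages and to 0.13 in cKO-labelled TAM against resident macrophages, and the share of higher genes among all calls was then 65.9% in the first of these, against 50.6% as deposited. For cKO-labelled against control TAM that share was 32.9% after rescaling, against 51.8% as deposited. All 41 members tested were then called in control TAM against resident macrophages, 40 higher and 1 lower. Of all 11127 genes, 5766 were called higher and 2986 lower in that setting and comparison. After rescaling 40 members were called lower in cKO-labelled against control TAM, all but Fen1. Most calls over all genes were also lower in that setting and comparison, as only 32.9% were higher. The gain over the 35 members called lower as deposited cannot be read apart from this shift. The directions of the 2 member lists did not change.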

How the data were processed

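The authors deposited 1 table of FPKM values with a column for each of the 10 libraries. Per the submitters' processing notes, STAR, edgeR and the builds mm10 and GRCm38 were used. Of versions, gene lengths and scaling of libraries, the sources used here say nothing. Per the labels' protocols, RNA was taken up with either of 2 kits, amplified with SMART-Seq v4 and made into Nextera XT libraries, which do not keep strand. The labels do not say which sample used which kit, so a kit difference between groups could not be checked.

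Members were matched by symbol, and coordinates come from GENCODE M21 (GRCm38, 1-based). Reads were recovered from the steps between low FPKM values with the longest transcript as gene length: 85.8% to 87.1% of values between 1 and 200 reads came out whole within 0.05, and for 30 of the 42 members in all 10 libraries. The median squared difference between library pairs of 1 group was 1.82 to 3.25 times that of counting noise. Libraries prepared apart from the same RNA could also exceed that noise, so this does not show separate animals. Each library was kept as 1 replicate, as the labels number them.

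A linear model of the 3 groups, leaving 7 residual degrees of freedom, was run on log2(FPKM + 1) of all 10 libraries in limma 3.58.1 (R 4.3.3), with moderated variances that follow expression level. The script was first tested on simulated data. FPKM are not counts, so no count test was the main one. Values are means ± SD with n = 3 for either TAM group and n = 4 for resident macrophages; intervals are 95%. The members and lists were chosen with earlier results of these data known. Values in every library are given for the 5 members of each list that changed most in a comparison, those called against their list and the 2 most abundant. Of the other lists, up to 3 genes with the largest called change and those against their list are named. Sums over a list and their ratio have no test. Alternatives were other pseudocounts, filters, scalings and weights, 2-group fits, voom on recovered reads, a replicate block, and each library left out in turn.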

Additional observations from a re-analysis of the deposited data

Results flagged for a closer look

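In the resident group, the only one with 4 libraries, 4 of 45 measures tested had 1 library far from the other 3 by Dixon's test, which chance does in about 1 in 20 groups. Tyms was at 4.94 FPKM in resident replicate 2, against 4.40 to 4.47 FPKM in the others. Cdc20 was at 6.28 FPKM in the same library, against 7.01 to 7.12 FPKM in the others. Hells was at 0.295 FPKM in resident replicate 4, against 0.183 to 0.196 FPKM. Cenpf was at 0.617 FPKM in resident replicate 3, against 0.393 to 0.430 FPKM.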

How the results depend on the processing

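No member tested changed its direction under any alternative run. Members called numbered 39 to 41 in control TAM against resident macrophages, 32 to 38 in cKO-labelled against control TAM and 38 to 40 in cKO-labelled TAM against resident macrophages when libraries were left out in turn. Of all 11127 genes, 8237 to 8559, 3496 to 4611 and 8182 to 8646 were called in these comparisons with a library left out. Under the other settings the members called numbered 29 to 41, 29 to 40 and 30 to 40, the lowest with a filter of 5 FPKM, which leaves 30 members to test. All genes called then numbered 6158 to 9416, 3629 to 4790 and 6188 to 9414, of 7582 to 12535 tested. Replicate numbers did not pair the samples: deviations of same-numbered libraries correlated at -0.0612 to 0.111, 1 of 9 pairs above 0.1. With the replicate number as a block, 40, 35 and 40 members were called; in cKO-labelled against control TAM Gins2 was gained and Kif11 lost. The ratio of replication to mitosis was 1.69 to 1.78 in cKO-labelled TAM, 1.65 to 1.70 in control TAM and 1.75 to 1.81 in resident macrophages with a library left out. As a ratio of geometric means it was 1.45, 1.42 and 1.46 in these groups, without Kif23 and Aurkb (chosen after seeing the data) 2.07, 1.94 and 2.72, and without Mcm3 and Aurkb 1.72, 1.63 and 1.87. In this last setting the resident libraries (1.79 to 1.98) lay above every control TAM library (1.57 to 1.68). Quantile normalization ended the calls of Fen1 in control TAM against resident macrophages and of Mcm3, Mki67 and Cenpe in cKO-labelled TAM against resident macrophages; the cause was not tested. Depth limits the lowest members, Ccne2 and Hells, whose resident values rest on as few as 10 and 12 reads.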
